A study of Mus musculus with 19 samples.

Results

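The YAP and TAZ genes were followed across 3 Pkd1 genotypes in mouse liver. They are 10 rows of the 35976 in a table of gene counts: the coactivators Yap1 and Wwtr1 (the gene of TAZ), the DNA-binding partner Tead1, the kinase Lats2, the scaffolds Amotl2 and Ajuba, which bind YAP and LATS, and the targets Ccn1, Ccn2, Ankrd1 and Crim1. They were chosen by name. The table lists Ccn1 as Cyr61 and Ccn2 as Ctgf. Of the 16463 genes with enough counts to be tested, 9 were members. Ankrd1 did not pass that filter and its values are given apart.

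RNA was sequenced from 1 liver per mouse in 7 WT, 6 Het and 6 Homo animals, where WT, Het and Homo name the genotype at Pkd1 and the mice are littermates by the submitters' design text. Pkd1 encodes polycystin-1, a large membrane protein of primary cilia whose loss causes polycystic kidney disease. All 3 groups received AAV-Cre, an adeno-associated virus that carries Cre recombinase, and a Western diet with carbon tetrachloride (CCl4), a hepatotoxin, for 3 months, which models the fatty liver inflammation called NASH. The labels give no serotype or promoter for the virus, no exons for the Pkd1 deletion, and no age or sex, and mice without the diet or without AAV-Cre are not analysed here. Het and Homo therefore name genotypes in whole liver, in which cells that Cre did not reach still contribute RNA. In bulk liver RNA, fewer cells of a type and less RNA per cell cannot be told apart.

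The Hippo pathway is a kinase cascade in which MST kinases activate LATS kinases, and LATS kinases phosphorylate YAP and TAZ and keep them out of the nucleus. Unphosphorylated YAP and TAZ bind TEAD factors and switch on genes of growth and matrix, among them several of their own inhibitors. In liver the pathway limits organ size and is known for its part in bile duct cell identity, regeneration and fibrosis. Since YAP and TAZ are controlled largely through phosphorylation and location, RNA levels do not measure their activity.

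Libraries held 25.8 to 42.1 M counts (M for mega), with 35.6 ± 2.20 in WT (SD, n = 7), 32.9 ± 4.77 in Het (SD, n = 6) and 35.6 ± 3.64 in Homo (SD, n = 6). CPM below are counts scaled to a normalised library size of 1 M. Pkd1 itself lay between 328 and 452 CPM in WT, 340 and 445 CPM in Het and 334 and 380 CPM in Homo, so the groups overlapped. Its log2 fold change in Homo against WT was -0.18 ± 0.08 (SE), with an adjusted p of 0.315 in edgeR's quasi-likelihood test. A count over the whole gene does not check a deletion of unknown extent. The 10 hepatocyte markers, Alb among them, summed to between 17455 and 23195 CPM in every library, so hepatocyte RNA was abundant throughout.

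No member passed the test for a difference between genotypes. A gene was called at a Benjamini-Hochberg adjusted p under 0.05 in edgeR's quasi-likelihood test over all tested genes. By that rule 0 of 9 members were called in Homo against WT, where 0.48% of all tested genes were called. The count was also 0 of 9 in Het against WT, against 0.0243% of all genes, and 0 of 9 in Homo against Het, against 0.182%. At an unadjusted p under 0.05 the members were 2 (Wwtr1 and Crim1), 0 and 3 (Wwtr1, Ajuba and Ccn2), and the shares of all genes were 12.9%, 8.84% and 6.29%. DESeq2 and limma-voom called no member in any comparison either. The lowest adjusted p of a member was 0.153, 0.609 and 0.483 by DESeq2 and 0.195, 0.597 and 0.703 by limma-voom. DESeq2 gave 3, 0 and 4 members an unadjusted p under 0.05, Ankrd1 included, and limma-voom 2, 0 and 2. DESeq2 was fitted without the count filter, and the shares of all genes at that threshold were not determined for either tool. Of the genes given an adjusted p, DESeq2 called 329 of 19601, 45 of 19110 and 112 of 21103. Limma-voom called 98, 4 and 13 of 16463.

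The CPM ranges of the 3 genotypes overlapped for each of the 10 members in each comparison. Over all tested genes, the groups did not overlap for 0.911% in Homo against WT, 0.194% in Het against WT and 0.686% in Homo against Het. The median log2 fold change of the 9 tested members was 0.09, 0.03 and 0.10 in these comparisons. The median over all genes was 0.00191, -0.00428 and -0.00117. Fold changes above 0 were found for 6, 5 and 5 of the 9 members, beside 50.3%, 49.1% and 49.7% of all genes. Any 2 of the comparisons share the libraries of 1 genotype, so their values are not independent. Without mice 1 to 3, which are all WT, the Homo against WT log2 values of Tead1 (0.12), Lats2 (-8.19e-05), Amotl2 (-0.00667) and Ajuba (-0.014) had the opposite sign from those with all mice, and that of Yap1 was -0.02.

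Single libraries also moved several Homo against WT values by over 1.5 times. Ajuba went from 0.21 to 0.062 without Homo replicate 2 and to 0.13 without Homo replicate 1. Ccn2 went from 0.38 to 0.20 without Homo replicate 4 and to 0.24 without WT replicate 6. Ccn1 went from -0.21 to -0.39 without Homo replicate 2, to -0.14 without WT replicate 2 and to -0.11 without Homo replicate 6. For Tead1 (-0.16) the value was -0.066, -0.073 and -0.25 without WT replicates 2, 3 and 4, -0.28 without WT replicate 7 and -0.10 without Homo replicate 1. For Lats2 (0.09) it was 0.028 without WT replicate 1, 0.033 without Homo replicate 2 and 0.15 without Homo replicate 6. The Homo against WT value of Amotl2, at 0.01, was below 0 in 5 of the 13 fits with 1 library left out. Those of Yap1, Wwtr1, Crim1 and Ankrd1 moved by less than 1.5 times. These values belong to genes that were not called.

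**Figure D1:**
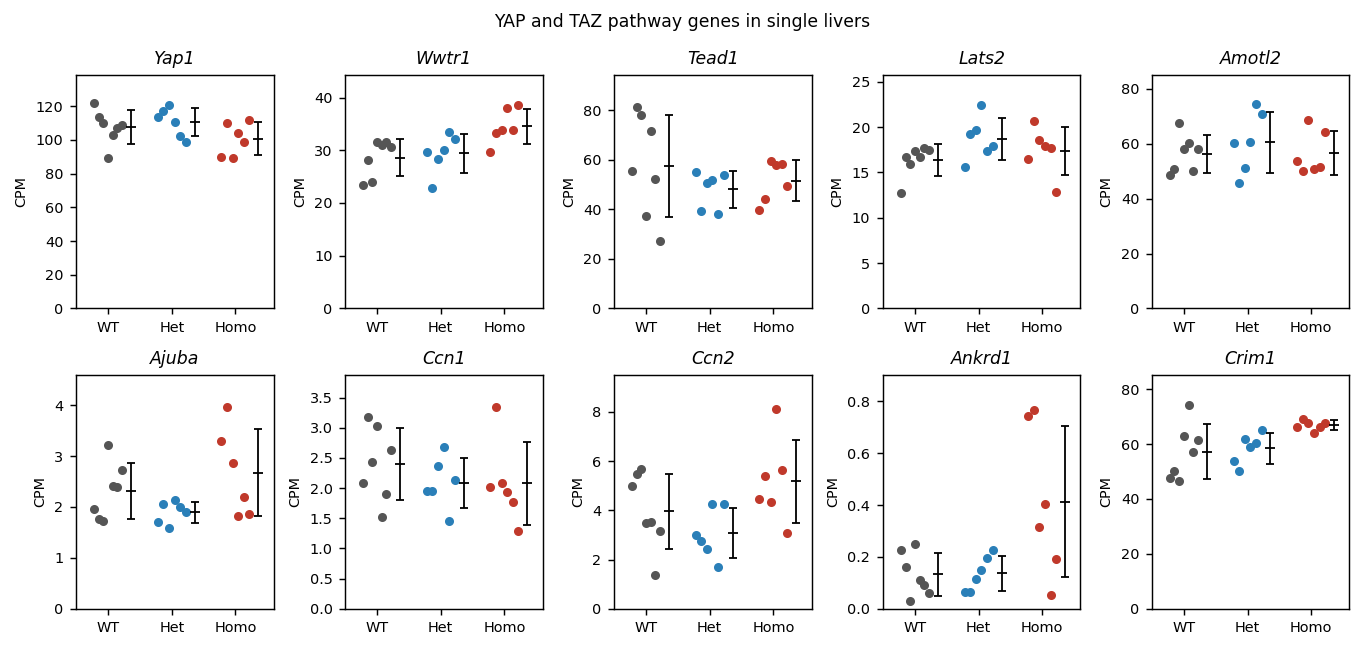
CPM (linear axes from 0) of the 10 pathway genes, 1 point per liver, in WT (n = 7), Het (n = 6) and Homo (n = 6), with the mean and SD beside each group. The groups overlap for every gene, and the 6 Homo livers lie close together for Crim1 (64.0 to 69.3 CPM).

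Yap1 (GRCm38 chr9:7931999-8004596, minus strand) encodes the coactivator YAP. Its lowest, median and highest levels were 89.2, 109 and 122 CPM in WT, 98.9, 112 and 121 CPM in Het, and 89.0, 101 and 112 CPM in Homo. The 3 genotypes covered nearly the same range, and 3 of 6 Homo livers lay below the lowest Het liver. The log2 fold change was -0.10 ± 0.07 (SE) in Homo against WT (adjusted p = 0.612) and -0.14 ± 0.08 in Homo against Het (adjusted p = 0.846). The 95% interval of the Homo to WT fold ran from 0.841 to 1.04. Yap1 was among the least variable members, with an SD between 7.63% and 9.73% of the mean within the genotypes.

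Wwtr1 (chr3:57455649-57575910, minus strand) encodes TAZ, the paralog of YAP. Its levels were 23.4, 30.6 and 31.6 CPM in WT (lowest, median, highest), 22.8, 29.8 and 33.4 CPM in Het, and 29.6, 33.9 and 38.6 CPM in Homo. Of the 6 Homo livers, 5 lay above the highest WT liver and 4 above the highest Het liver, while the lowest Homo liver lay inside both other ranges. The mean was 34.5 ± 3.30 CPM in Homo (SD, n = 6) and 28.6 ± 3.57 CPM in WT (SD, n = 7). The fold was 1.21 (95% interval 1.05 to 1.39), a log2 difference of 0.27 ± 0.10 (SE) with an adjusted p of 0.234. Against Het the log2 difference was 0.23 ± 0.10 (adjusted p = 0.743), and Het against WT gave 0.04 ± 0.10 (adjusted p = 0.937). Without mice 1 to 3 the Homo against WT value was 0.14.

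Tead1 (chr7:112679318-112906807, plus strand) encodes one of the TEAD factors that bring YAP and TAZ to DNA. It was the most uneven of the abundant members within WT, at 27.3, 55.4 and 81.2 CPM (lowest, median, highest). The Het livers held 38.1, 51.3 and 54.9 CPM, and the Homo livers 39.9, 53.7 and 59.7 CPM. Both mutant ranges lay inside the WT range. The SD was 35.7% of the mean in WT, 15.5% in Het and 16.1% in Homo. The Homo to WT fold was 0.895 (95% interval 0.671 to 1.19, adjusted p = 0.785), an interval wider than that of Yap1 or Wwtr1. Per kilobase of exon, Tead1 had a mean of 3.88 CPM, above Tead3 (1.62), Tead2 (0.397) and Tead4 (0.160), the other genes of the family.

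Lats2 (chr14:57689662-57758388, minus strand) encodes a kinase that phosphorylates YAP and TAZ and is also a gene they induce. The levels were 12.7, 16.7 and 17.7 CPM in WT, 15.6, 18.5 and 22.4 CPM in Het, and 12.9, 17.8 and 20.7 CPM in Homo. The lowest WT liver stood apart from the next, at 15.9 CPM. In Het, 4 of 6 livers lay above the highest WT liver, and in Homo 3 of 6 did. The log2 difference was 0.19 ± 0.10 (SE) in Het against WT (adjusted p = 0.605), the smallest p of any member there, and 0.09 ± 0.10 in Homo against WT (adjusted p = 0.780). Of the exonic bases of Lats2, 42.4% are shared with the same-strand model Gm49361, which has no row of that name. How the counting assigned reads from those bases is not known.

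Amotl2 (chr9:102716672-102733418, plus strand) encodes an angiomotin, a junction protein that binds YAP and holds it in the cytoplasm, and it too is a YAP target. It measured 48.4, 58.0 and 67.5 CPM in WT, 45.7, 60.4 and 74.3 CPM in Het, and 50.1, 52.6 and 68.7 CPM in Homo. No genotype stood apart, and the Homo to WT fold was 1.01 (95% interval 0.855 to 1.18, adjusted p = 0.982). Ajuba (chr14:54567472-54577558, minus strand) encodes a LIM-domain scaffold that binds LATS and restrains it. It was far less abundant, at 1.73, 2.39 and 3.22 CPM in WT, 1.59, 1.95 and 2.13 CPM in Het, and 1.82, 2.54 and 3.97 CPM in Homo. The Homo livers were split: 3 lay between 2.87 and 3.97 CPM (mice 8, 10 and 15) and the other 3 between 1.82 and 2.20 CPM (mice 16, 17 and 18). The fold was 1.41 in Homo against Het (95% interval 1.05 to 1.88, adjusted p = 0.714), with 4 of 6 Homo livers above the highest Het liver. It was 1.15 in Homo against WT (95% interval 0.875 to 1.52, adjusted p = 0.695).

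**Figure D2:**
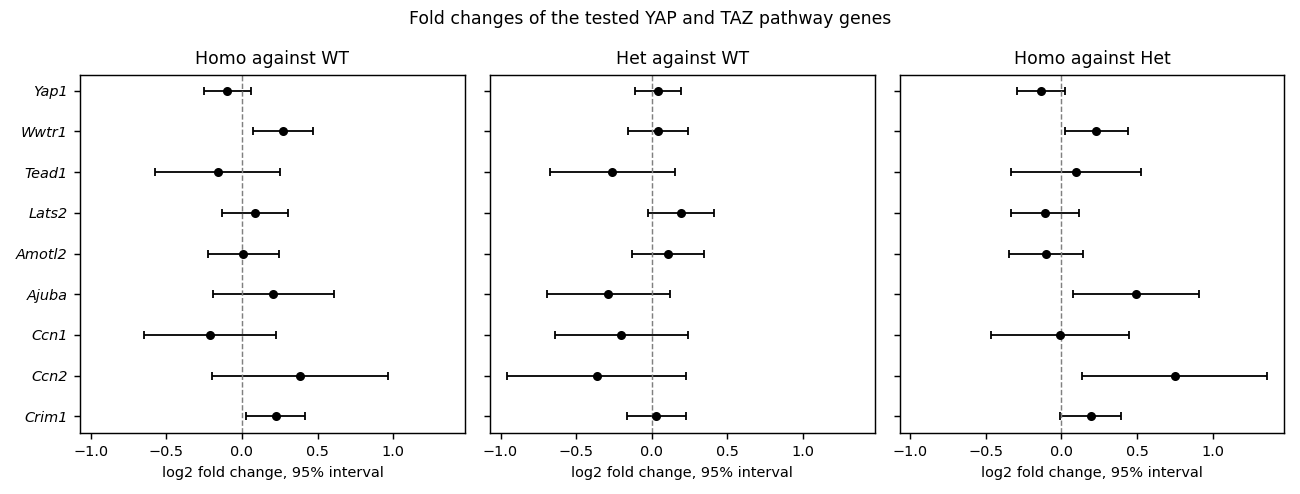
Log2 fold changes of the 9 tested members with 95% intervals from edgeR's quasi-likelihood fit, in 3 panels for Homo against WT, Het against WT and Homo against Het; the dashed line marks no difference. The intervals of Wwtr1 and Crim1 in Homo against WT and of Wwtr1, Ajuba and Ccn2 in Homo against Het leave out 0, and none of these passed the adjustment over 16463 genes.

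The target genes were examined together with the sequence before their start sites, since TEAD factors recognise the letters GGAATG. RefSeq promoter windows (GRCm38.p6, 250 bases before to 50 after a start site) were matched for 8 of the 10 members, in 10 windows. GGAATG, searched on both strands, was found in a window of all 8, and in 14.7% of the 32851 windows of the same length in the reference. The members were chosen in part as known TEAD targets, so this share is a description. Lats2 held it in 1 of its 2 windows, 4 bases after the start, and the overlapping windows of Wwtr1 shared 1 match. The AP-1 letters TGACTCA or TGAGTCA (5.20% of all windows) and the SRF CArG box (1.63%) were in no member window, and TATAAA (8.32%) was in that of Ccn1 alone. The 250 upstream bases of the 4 targets that hold GGAATG there are printed 5′ to 3′ on the strand of the gene, with GGAATG or its reverse complement in capitals. They are chr3:145649986-145650235 for Ccn1 and chr19:36119845-36120094 for Ankrd1 (both minus strand), and chr9:102717554-102717803 for Amotl2 and chr17:78199998-78200247 for Crim1 (both plus strand).
Ccn1: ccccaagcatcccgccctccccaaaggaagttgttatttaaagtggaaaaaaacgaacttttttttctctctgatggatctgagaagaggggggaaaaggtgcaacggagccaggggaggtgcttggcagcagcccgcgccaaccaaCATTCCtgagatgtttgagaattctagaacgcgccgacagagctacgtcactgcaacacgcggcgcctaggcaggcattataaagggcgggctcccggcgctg
Ankrd1: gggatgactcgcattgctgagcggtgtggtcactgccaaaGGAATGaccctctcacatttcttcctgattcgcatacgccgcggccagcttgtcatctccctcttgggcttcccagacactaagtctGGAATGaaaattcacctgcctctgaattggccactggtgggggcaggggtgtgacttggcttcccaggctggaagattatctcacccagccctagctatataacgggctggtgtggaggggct
Amotl2: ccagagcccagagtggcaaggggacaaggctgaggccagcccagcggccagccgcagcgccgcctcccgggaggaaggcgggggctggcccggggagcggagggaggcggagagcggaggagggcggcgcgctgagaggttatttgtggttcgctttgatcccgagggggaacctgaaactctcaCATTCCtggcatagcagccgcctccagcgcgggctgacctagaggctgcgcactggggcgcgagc
Crim1: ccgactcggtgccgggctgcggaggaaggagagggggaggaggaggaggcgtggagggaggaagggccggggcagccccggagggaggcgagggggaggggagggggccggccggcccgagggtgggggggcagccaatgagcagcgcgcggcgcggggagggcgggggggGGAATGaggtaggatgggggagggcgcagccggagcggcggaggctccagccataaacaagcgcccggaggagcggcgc
The first base of the match lay 103 bases before the start in Ccn1, 65 in Amotl2 and 79 in Crim1. Ankrd1 held a pair of matches, 210 and 123 bases before its start. These letters were thus found before the least abundant member, Ankrd1, and before one of the most abundant, Crim1, and a match does not show that a factor binds.

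Ccn1 (chr3:145646976-145649981, minus strand) and Ccn2 (chr10:24595442-24598683, plus strand) encode secreted matricellular proteins and are the most used readouts of YAP and TAZ. Ccn1 measured 1.53, 2.43 and 3.18 CPM in WT, 1.46, 2.04 and 2.67 CPM in Het, and 1.29, 1.98 and 3.34 CPM in Homo. Its highest and its lowest liver of all were both Homo. Its fold in Homo against WT was 0.865 (95% interval 0.639 to 1.17, adjusted p = 0.721). Ccn2 measured 1.38, 3.53 and 5.69 CPM in WT, 1.71, 2.87 and 4.26 CPM in Het, and 3.09, 4.93 and 8.11 CPM in Homo. Of the Homo livers, 5 of 6 lay above the highest Het liver but only 1 above the highest WT liver. The log2 difference was 0.75 ± 0.29 (SE) in Homo against Het (fold 1.68, 95% interval 1.10 to 2.56, adjusted p = 0.670). It was 0.38 ± 0.28 in Homo against WT (fold 1.31, 95% interval 0.873 to 1.95, adjusted p = 0.581). The 3 highest WT livers for Ccn2 were mice 1 to 3, and without them the Homo against WT value was 0.84. The antisense model Gm15270, which has no row of that name, shares 23.2% of the exonic bases of Ccn2. Where counting ignores strand, the reads of Ccn2 and Gm15270 from those bases cannot be told apart.

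Ankrd1 (chr19:36111961-36120099, minus strand) encodes a cardiac ankyrin repeat protein that responds strongly to YAP in cultured cells. It was near the limit of detection, with 1 to 9 counts per WT library, 2 to 9 per Het library and 2 to 27 per Homo library. These counts equal 0.0293, 0.111 and 0.250 CPM in WT (lowest, median, highest), 0.0631, 0.133 and 0.228 CPM in Het, and 0.0538, 0.361 and 0.765 CPM in Homo. In Homo, 4 of 6 livers lay above the highest WT liver, and 1 had 2 counts. In the fit without a filter (26277 genes) the log2 difference was 1.59 ± 0.55 (SE) in Homo against WT (adjusted p = 0.304), 1.54 ± 0.58 in Homo against Het (adjusted p = 0.687) and 0.04 ± 0.57 in Het against WT (adjusted p = 1).

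Crim1 (chr17:78200248-78376592, plus strand) encodes a membrane protein with cysteine-rich repeats that binds BMPs. Pkd1 lies on the same chromosome. Crim1 levels were 46.5, 57.0 and 74.4 CPM in WT, 50.2, 59.7 and 65.1 CPM in Het, and 64.0, 66.9 and 69.3 CPM in Homo. The 6 Homo livers all lay above the WT median, none lay above the highest WT liver, and 5 lay above the highest Het liver. Their SD was 1.83 CPM, or 2.74% of the mean, against 10.0 CPM (17.5%) in WT. The Homo to WT fold was 1.17 (95% interval 1.02 to 1.34), a log2 difference of 0.22 ± 0.09 (SE) with an adjusted p of 0.317. Without mice 1 to 3 it was 0.06.

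Levels of different genes were compared per kilobase of exon (GENCODE M21). Over the 19 livers the mean CPM per kilobase was highest for Yap1 (11.5), Crim1 (10.1), Amotl2 (9.16) and Wwtr1 (6.43). Tead1 (3.88) and Lats2 (2.50) followed, then Ccn2 (1.42), Ccn1 (1.09), Ajuba (0.630) and Ankrd1 (0.0771). Yap1, Wwtr1, Tead1, Lats2, Amotl2 and Crim1 thus had higher means than the CCN targets. Yap1 exceeded Crim1 in 13 of 19 livers, Crim1 exceeded Amotl2 in 15, and Ccn2 exceeded Ccn1 in 13. Amotl2 exceeded Wwtr1, Ccn1 exceeded Ajuba, and Ajuba exceeded Ankrd1 in all 19 livers. Among neighbours in this order, only the ranges of Ajuba and Ankrd1 did not overlap.

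Each sample title ends in a number, from 1 to 20, that no label explains. The members were compared with it because the genotypes are unevenly spread over it: mice 1 to 3 are WT, and the Homo mice run from 8 to 18. Wwtr1 was higher in mice of higher number (Pearson r = 0.79 over 19 mice, permutation p = 4e-05, adjusted over all tested genes 0.00188; Spearman rho = 0.85). The relation had the same sign within each genotype, at r = 0.86 in WT, 0.70 in Het and 0.83 in Homo, and r was 0.78 without mice 1 and 20. Crim1 followed with r = 0.69 (permutation p = 0.00139, adjusted 0.0198; rho = 0.58, adjusted permutation p = 0.0869), and within the genotypes r was 0.81 in WT, 0.72 in Het and -0.25 in Homo. Without mice 1 and 2 the r of Crim1 was 0.56, and without mice 1 and 20 it was 0.63. Wwtr1 and Crim1 were 2 of the 9 tested members with an adjusted p under 0.05 for r, a call that 11.0% of all tested genes also met. At an unadjusted permutation p under 0.05 the members were 3 of 9, with Amotl2 added (r = 0.48, adjusted permutation p = 0.175), against 24.6% of all genes. An r at least as far from 0 as that of Wwtr1 was found for 2.24% of all tested genes, and as that of Crim1 for 6.49%. Yap1 had r = -0.45 (adjusted permutation p = 0.216; rho = -0.56, adjusted permutation p = 0.0974), and Ccn1 -0.44 (adjusted permutation p = 0.227). Adjusted over the members alone, as first planned, the permutation p of rho was 0.0455 for Yap1 and 0.0455 for Crim1, both under 0.05. For Yap1, r within the genotypes was -0.55 in WT, -0.90 in Het and 0.31 in Homo. Ajuba and Ankrd1 had r = 0.12 and 0.17 over all mice, but within Homo r was -0.86 for Ajuba and -0.82 for Ankrd1. Within WT these values were 0.78 and -0.24, and within Het 0.46 and 0.96. The values of Ankrd1 rest on few counts, 2 to 9 in the 6 Het libraries and 2 to 27 in the 6 Homo libraries. No r within a genotype was tested. With mouse number as a covariate, the Homo against WT log2 difference was 0.11 for Wwtr1 and 0.10 for Crim1. Whether the number stands for time, cage or processing was not tested.

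**Figure D3:**
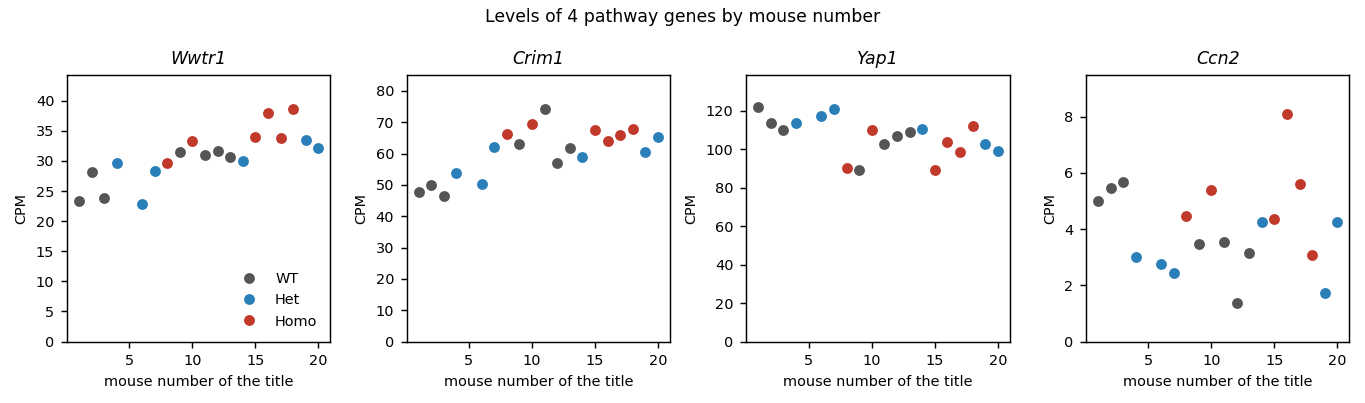
CPM (linear axes from 0) of Wwtr1, Crim1, Yap1 and Ccn2 against the mouse number of the sample title, 1 point per liver, coloured by genotype. Wwtr1 is higher at higher numbers in each genotype, and mice 1 to 3, all WT, are among the lowest for Wwtr1 and Crim1 and the highest of WT for Ccn2.

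The members were compared with each other in 45 pairs. At an unadjusted permutation p under 0.05 there were 8 pairs, 17.8% of the 45, each with an r at least 0.46 from 0. Over all pairs of tested genes, 7.81% had an r that far from 0. Of the 8, 4 held Crim1 and 4 held Ajuba, a single pair holding both. Of the 45 pairs, 1 had a permutation p adjusted over the pairs under 0.05 for Pearson's r over 19 mice. It was Wwtr1 with Crim1 (r = 0.78, adjusted p = 0.0063; rho = 0.69, adjusted p = 0.0657), and r was 0.68 without the 2 mice farthest from the median. With genotype means subtracted r was 0.68, and without mice 1 to 3 it was 0.63. Both genes also varied with mouse number. The r of the 45 pairs ran from -0.57 (Yap1 with Ajuba, adjusted permutation p = 0.145) to 0.78, with a median of 0.02. The paralogs Yap1 and Wwtr1 had r = -0.46 (adjusted permutation p = 0.259; rho = -0.57).

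The genes of most like pattern were those with the highest r of log2 CPM over the 19 livers among 13244 genes with a mean of at least 1 CPM. As the highest of so many, they carry no p. Yap1 was most like Mob3b, a gene of the MOB family to which the LATS cofactors belong (r = 0.90, rho = 0.90). It was followed at a distance by the histone gene H2afz (r = 0.79) and Armc7 (0.79). Wwtr1 was most like the lysosomal mannosidase gene Manba (r = 0.86), Cerkl (0.85) and Acot2 (0.83), and Crim1 like Zcchc11 (0.86), Palmd (0.84) and Ttc30b (0.84). Lats2 was most like Smad5, a transducer of BMP signals (r = 0.78), Usp36 (0.78) and Bahd1 (0.74). Amotl2 was most like 4933408B17Rik (0.83), Trib1 (0.82) and Scyl2 (0.75), and Ajuba like Prok1 (0.80), Ccdc88c (0.78) and Serpinb6a (0.77). Tead1 went with Fam166a (0.80), Gm16973 (0.78) and Ppp1r13l (0.76). Ccn1 went with the tetraspanin gene Cd81 (0.81), Il10ra (0.79) and Ap5z1 (0.78). Ccn2 went with Anxa2 (0.80), Lgals1 (0.79) and Itfg1 (0.79). Ankrd1 went with Agrn (0.79), Zfp462 (0.78) and Sestd1 (0.78). Without the 2 mice farthest from the median, the 30 values ran from 0.51 (Lats2 with Bahd1) to 0.86 (Yap1 with Mob3b), with a median of 0.70.

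The wider pathway was examined in lists, chosen with earlier results of these data known. Each member is itself on at least 1 list. Some genes, such as Ptpn14, Amotl2 and Lats2, are on more than 1, so the counts of the lists are not independent. Of 24 Hippo kinases and upstream regulators, all tested, 0 were called in any comparison, and 19 of 24 log2 fold changes were above 0 in Homo against WT (median 0.07). The cadherin Dchs1 had -0.30 ± 0.12 (SE, adjusted p = 0.324), Nf2, the gene of merlin, 0.16 ± 0.08 (adjusted p = 0.389), and the kinase Lats1 0.09 ± 0.05 (adjusted p = 0.505). Of 24 tested partners and inhibitors of YAP and TAZ, 26 being listed, 0 were called, with 13 of 24 above 0 in Homo against WT and a median of 0.00492. Besides Wwtr1, the smallest p values there were those of Runx1 (0.46 ± 0.22, adjusted p = 0.389) and the LIM-domain gene Wtip (-0.60 ± 0.32, adjusted p = 0.437). At an unadjusted p under 0.05, edgeR had 1, 0 and 0 of the Hippo regulators and 1, 0 and 7 of the partners in Homo against WT, Het against WT and Homo against Het. The shares of all tested genes at that threshold were 12.9%, 8.84% and 6.29%. DESeq2 and limma-voom called none of either list.

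Of 22 genes in a conserved target signature of YAP and TAZ, 19 were tested and 0 were called in any comparison by edgeR, DESeq2 or limma-voom. The counts by edgeR at an unadjusted p under 0.05 were 5, 1 and 7 of 19, beside 12.9%, 8.84% and 6.29% of all tested genes. In Homo against WT, 14 of 19 were above 0 with a median of 0.12. The values were 8 of 19 in Het against WT (median -0.01) and 10 of 19 in Homo against Het (median 0.13). Besides Crim1, the smallest p values in Homo against WT were those of Myof, a membrane repair protein (0.52 ± 0.17 SE, adjusted p = 0.192), and the ligand gene Tgfb2 (0.57 ± 0.22, adjusted p = 0.281). Their ranges overlapped, Myof at 15.9 to 30.5 CPM in WT and 25.3 to 36.3 CPM in Homo.

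Of 19 tested among 20 other genes reported to respond to YAP in liver or epithelium, 1 was called, in Homo against WT. Over all tested genes 0.48% were called there. The called gene of the list was the cyclin D1 gene Ccnd1, which drives entry into the cell cycle. It lay between 13.2 and 31.6 CPM in WT, 15.8 and 37.5 CPM in Het, and 34.7 and 71.5 CPM in Homo. The WT and Homo ranges did not overlap, as was so for 0.911% of all tested genes. Ccnd1 was higher in Homo by a log2 difference of 1.06 ± 0.23 (SE, adjusted p = 0.045). It was called by DESeq2 and limma-voom too, but not without mice 1 to 3 (0.84, adjusted p = 0.349) or once mouse number entered the fit (0.89, adjusted p = 0.249). In the edgeR fit without a filter it was not called either (1.05, adjusted p = 0.0535). With 1 library left out, it stayed called in 3 of 13 fits. Next in this list were the Notch ligand gene Jag1 (0.47 ± 0.14, adjusted p = 0.159) and the osteopontin gene Spp1 (0.62 ± 0.22, adjusted p = 0.242). By edgeR 5, 2 and 5 of 19 had an unadjusted p under 0.05, beside 12.9%, 8.84% and 6.29% of all tested genes.

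The CCN family had 3 tested genes of 6 and 0 called by any of the 3 tools, and Ccn4 had a log2 difference of 0.31 ± 0.31 in Homo against WT (adjusted p = 0.721). Of 17 tested SRF and MRTF targets, genes of the actin cytoskeleton, 0 were called, with 5 of 17 above 0 in Homo against WT (median -0.10). In Het against WT 3 of 17 were above 0 (median -0.12), and in Homo against Het 10 of 17 (median 0.11). For Homo against WT, Vcl had -0.18 ± 0.08 (adjusted p = 0.372), Actb -0.22 ± 0.10 (adjusted p = 0.390) and Srf -0.16 ± 0.11 (adjusted p = 0.543). Of 16 immediate early genes, which rise quickly on stress and handling, 0 were called, with 7 of 16 above 0 in Homo against WT (median -0.06). In Het against WT 5 of 16 were above 0 (median -0.13), and in Homo against Het 11 of 16 (median 0.07). For Homo against WT, Egr1 had 0.56 ± 0.26 (adjusted p = 0.366), Zfp36 -0.41 ± 0.24 (adjusted p = 0.484) and Jun 0.27 ± 0.17 (adjusted p = 0.530). At an unadjusted p under 0.05, edgeR had 0, 0 and 1 of the CCN genes, 1, 4 and 3 of the SRF targets and 1, 3 and 1 of the immediate early genes. The shares of all tested genes were 12.9%, 8.84% and 6.29%. DESeq2 and limma-voom called none of the 2 latter lists.

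**Figure D4:**
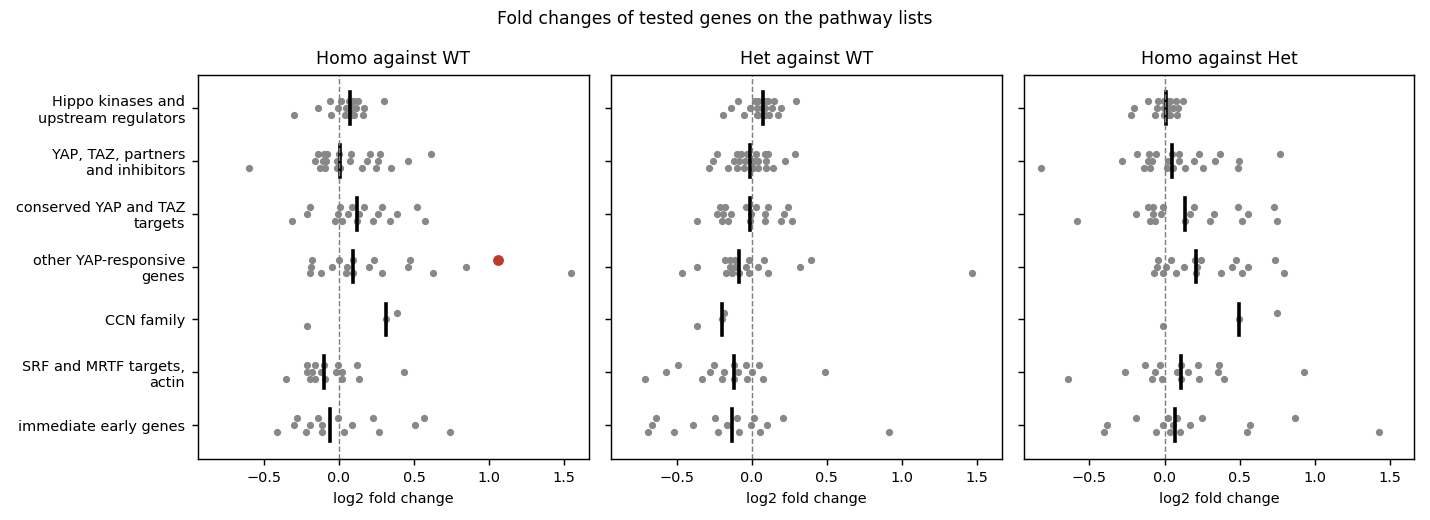
Log2 fold changes of the tested genes on each pathway list (points) with the list's median (bar), in 3 panels for Homo against WT, Het against WT and Homo against Het; a red point marks a gene called by edgeR's quasi-likelihood test. The only called gene is Ccnd1 in Homo against WT, at 1.06.

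Markers of other liver cells were measured beside the members because YAP is known to be more abundant in bile duct cells than in hepatocytes. The marker lists were chosen with earlier results of these data known, so their counts of calls are a description. Of 13 tested bile duct markers, 3 were called in Homo against WT, all higher, where 0.48% of all tested genes were called. They were the keratins Krt7 (3.06 ± 0.40 SE, adjusted p = 0.00043) and Krt19 (2.50 ± 0.39, adjusted p = 0.00305) and the mucin Muc1 (1.83 ± 0.37, adjusted p = 0.025). Without mice 1 to 3, only Krt7 of these was called (2.65), Krt19 being at 2.16 (adjusted p = 0.057). With all mice, 9 of the 13 markers were above 0 in Homo against WT (median 0.76, lowest -0.64), beside 50.3% of all genes. In Het against WT 5 of 13 were above 0, and in Homo against Het 12 of 13. In Homo against Het the 3 called were Krt7, Krt19 and Epcam, and 0.182% of all tested genes were called. Epcam stayed called in 1 of 12 fits with 1 library left out. DESeq2, fitted without the count filter on all 15 listed, called 4, Krt7, Krt19, Epcam and Muc1, in both of these comparisons. Over all genes DESeq2 called 329 of 19601 in Homo against WT and 112 of 21103 in Homo against Het. The calls of limma-voom over all genes were 98 and 13 of 16463. Limma-voom called 3 (Krt7, Krt19 and Muc1) in Homo against WT and 1 (Krt19) in Homo against Het, where Krt7 and Epcam each had an adjusted p of 0.0568. With mouse number in the fit, Muc1 was not called in Homo against WT (1.68, adjusted p = 0.0941), and with 1 library left out it stayed called in 7 of 13 fits. At an unadjusted p under 0.05 edgeR had 6, 1 and 5 of the 13 in Homo against WT, Het against WT and Homo against Het. The shares of all tested genes were 12.9%, 8.84% and 6.29%. The 15 bile duct markers summed to 179 to 288 CPM in WT, 189 to 262 CPM in Het and 254 to 345 CPM in Homo, and none was at 0 in all libraries. The most abundant of them was Spp1, with means of 81.6 CPM in WT, 72.6 CPM in Het and 126 CPM in Homo. Spp1 was not called in Homo against WT (adjusted p = 0.242) and is also on the list of genes reported to respond to YAP. Of the 15 stellate cell and fibroblast markers 0 were called by edgeR (2, 0 and 5 at an unadjusted p under 0.05) and 1, Postn, by DESeq2 in Homo against WT, and they summed to 349 to 555, 385 to 463 and 425 to 492 CPM. Ccn2, Ajuba, Ankrd1, Crim1 and Wwtr1 had their highest mean in the same genotype, Homo, as the bile duct sum. Yap1, Lats2 and Amotl2 had theirs in Het, and Tead1 and Ccn1 in WT. The mean of Yap1 was lowest in Homo, at 101 CPM against 108 CPM in WT and 111 CPM in Het. The median sum was highest in Homo for 4 of the marker lists: 297 CPM for bile duct markers (201 in WT, 210 in Het), 455 CPM for stellate cell and fibroblast markers (415 and 401), 281 CPM for macrophage markers (249 and 251) and 27.9 CPM for mesothelial markers (22.3 and 23.4). The part of these 4 cell types in the members' values was not tested.

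Other marker lists had 0 called genes in each comparison by edgeR. At an unadjusted p under 0.05 it had 4, 2 and 1 endothelial, 1, 1 and 1 macrophage, 1, 0 and 1 mesothelial and 3, 1 and 0 hepatocyte markers. These lists had 12, 11, 7 and 10 tested genes, and the shares of all tested genes were 12.9%, 8.84% and 6.29%. In Homo against WT, DESeq2 called Lyve1 (lower) and Msln (higher), and limma-voom called Msln. Over all genes these tools called 329 of 19601 and 98 of 16463 there. In WT, Het and Homo, the 12 endothelial markers summed to 480 to 519, 461 to 525 and 459 to 524 CPM. The 11 macrophage markers summed to 234 to 311, 239 to 267 and 214 to 304 CPM. The 8 mesothelial markers summed to 9.41 to 40.6, 16.5 to 46.4 and 20.7 to 34.6 CPM. Striated muscle markers, 9 of 10 under 1 CPM, summed to at most 3.31, 24.4 and 2.38 CPM.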

How the data were processed

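Raw counts for every gene symbol in the 19 livers were deposited by the authors, made with STAR 2.7.2b, featureCounts 1.6.4 and GRCm38 per the submitters' processing notes. The strand setting, the annotation and the handling of multiply matching reads are not stated in those notes. Of 35976 rows, 27 are named by a date instead of a gene; they stayed in the library totals. Groups follow the genotype label.

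Counts were tested in R 4.3.3 with edgeR 4.0.16 (TMM, filterByExpr by genotype, quasi-likelihood F test, two-sided, all 19 libraries in 1 fit), which left 16463 genes, with Benjamini-Hochberg adjustment over all of them and a threshold of 0.05. Unless another tool is named, every p of a gene comes from this test. SE is the log2 fold change over the square root of F, and intervals are at 95%. CPM use TMM library sizes and log2 CPM a prior count of 2. Correlations used 100000 permutations in SciPy 1.17.1 and NumPy; those with mouse number were adjusted over all tested genes, a choice made after seeing the data, and those between members over the 45 pairs. Alternatives were DESeq2 1.42.0, limma-voom (limma 3.58.1), other scaling and filters, an adjusted p under 0.10, 2 genotypes alone, mouse number as a covariate, leaving out mice 1 to 3, and leaving out each library. The fits of Ankrd1 without a filter were varied after seeing the data. The fit was tested on simulated counts.

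The members and lists were chosen with earlier results of these data known. Named genes are the 10 members, from each pathway list every called gene and the 3 with the smallest p for Homo against WT, called marker genes, and the 3 genes most correlated with each member. Mice, not cells or genes, are the replicates.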

Additional observations from a re-analysis of the deposited data

Results flagged for a closer look

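Lats2 stood at 12.7 CPM in WT replicate 1, below the other WT livers, of which the nearest had 15.9 CPM and the highest 17.7 CPM. The gap was 0.640 of the whole range of the group, above Dixon's critical value of 0.568 for 7 samples. It was the only such library among the 30 groups examined (10 members in 3 genotypes), and chance alone marks about 1 group in 20. The same liver is mouse 1, and it had the lowest WT level of Wwtr1 and the highest of Yap1.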

How the results depend on the processing

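The number of members called was 0 in each comparison under every alternative run. Without mice 1 to 3, the Homo against WT log2 fold changes turned to 0.12 for Tead1, -8.19e-05 for Lats2, -0.00667 for Amotl2 and -0.014 for Ajuba, and the Het against WT ones to -0.084 for Wwtr1, 0.030 for Tead1, 0.093 for Ccn2 and -0.13 for Crim1. With mouse number in the fit they turned to -0.13 for Amotl2 and 0.0058 for Actb in Homo against WT, to -0.065 for Wwtr1 and -0.049 for Crim1 in Het against WT, and to 0.031 for Ccn1 in Homo against Het. Leaving out 1 library moved Amotl2 from -0.059 to 0.058 in Homo against WT, Ccn1 from -0.20 to 0.093 in Homo against Het, and in Het against WT Yap1 from -0.0022 to 0.073, Wwtr1 from -0.0019 to 0.10, Crim1 from -0.014 to 0.10 and Ankrd1 from -0.16 to 0.26. No other member changed direction, and the cause was not tested. Leaving out 1 library also gave ranges, in Het against WT, of -0.38 to -0.16 for Tead1 (nearest 0 without WT replicate 2), 0.038 to 0.18 for Amotl2 (without Het replicates 5 and 2), -0.35 to -0.19 for Ajuba (nearest 0 without WT replicate 4), -0.29 to -0.12 for Ccn1 and -0.51 to -0.24 for Ccn2 (both nearest 0 without Het replicate 5), and in Homo against Het of 0.037 to 0.16 for Tead1 (without Het replicate 5 and Homo replicate 1), -0.16 to -0.038 for Lats2 (without Homo replicates 2 and 6) and -0.17 to -0.034 for Amotl2 (without Het replicates 2 and 5).

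Over all genes, the calls in Homo against WT were 79, and 176 at an adjusted p under 0.10, 329 by DESeq2, 38 with mouse number in the fit, 25 without mice 1 to 3 and 35 (without Homo replicate 3) to 122 (without WT replicate 6) with 1 library left out. In Het against WT they were 4, and 45 by DESeq2 and 4 to 7 with 1 library left out. In Homo against Het they were 30, and 51 at an adjusted p under 0.10, 112 by DESeq2, 13 by limma-voom and 9 to 30 with 1 library left out. The pairs of members with an adjusted p under 0.05 were 1, and 0 with genotype means subtracted and 0 without mice 1 to 3. No paired analysis was possible because the labels give no replicate number that the genotypes share: the number in each title names 1 mouse. Depth limits Ankrd1, with at most 27 counts in a library, and Ajuba, Ccn1 and Ccn2, with 41 to 280.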

Other observations

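The ratio of Wwtr1 to Yap1 within a library, chosen after the values were seen and given with no test, was 0.344 ± 0.0273 in Homo (SD, n = 6), 0.269 ± 0.0514 in Het (SD, n = 6) and 0.270 ± 0.0548 in WT (SD, n = 7) on the CPM scale. It ran from 0.302 to 0.381 in Homo, from 0.194 to 0.326 in Het and from 0.192 to 0.353 in WT, so the groups overlapped. The WT livers of mice 1, 2 and 3 had 0.192, 0.248 and 0.218. The other 4 WT livers had 0.308 ± 0.0313 (SD, n = 4).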
